A study of Mus musculus with 12 samples.

Results

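Marchf3, Ube2k and Atp13a3 carried ESRP1 crosslink sites at many places along their RNA in mouse epidermis. The members are the sites that fell within the annotated GRCm38 spans of these 3 genes, on the strand of each gene, in 3 lists of sites that the authors deposited. Within a list, neighbouring sites no more than 10 nt from each other made up 1 region. This gave 167 of the 76240 regions of the 3 lists. Joined across the lists in the same way they formed 88 of 45738 regions, of which 27 held sites of all 3 lists, out of 9649 such regions in the whole series. The genes were chosen by their number of regions held by all 3 lists, among genes with no known ESRP role. Their numbers of sites and regions are therefore a description, and no test was made on them.

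ESRP1 is an epithelial RNA-binding protein that controls which exons are kept in a messenger RNA and binds RNA rich in G and U. It is known for splicing switches that separate epithelial from mesenchymal forms of a protein. Where it binds relative to an exon bears on whether that exon is kept or skipped, and it can also bind untranslated parts of a message. Marchf3 encodes a RING-CH ubiquitin ligase of endosomal membranes. Ube2k encodes a ubiquitin-conjugating (E2) enzyme that builds ubiquitin chains of the kind that marks proteins for the proteasome. Atp13a3 encodes a P5-type transport ATPase linked to the uptake of polyamines.

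The contacts were mapped by eCLIP, in which RNA is fixed to bound protein with ultraviolet light, and reverse transcription of the recovered RNA tends to stop at the fixed nucleotide. The epidermis was from pup back skin at postnatal day 1, genotype Esrp1FLAG/FLAG, so that the endogenous protein carried the tag on both alleles. The labels name 6 FLAG immunoprecipitates and 6 inputs from biological replicates 1 to 6, all of this genotype, cut from a membrane between 75 and 140 kDa. List 1 was called on replicates 1 and 2, list 2 on replicates 3 and 4, and list 3 on replicates 5 and 6, each with input. The lists held 73602, 40014 and 53864 sites. They give no read counts, so depth is unknown, and spread could be seen only between the 3 lists. The authors gave each site a score of no stated scale, which was used here to describe and rank sites within a list. Its median was 11.6, 14.7 and 17.7 in lists 1, 2 and 3, so a like score can stand at another percentile in another list.

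Sites were also counted in marker genes of cell types of skin. This does not check which cells the tissue held, since only RNA bound by the tagged ESRP1 was recovered. A region in all 3 lists was present in 7 of 14 keratinocyte markers, against 17.7% of protein-coding genes, with 223, 123 and 222 sites in lists 1, 2 and 3. It was present in 1 of 6 melanocyte markers (Mitf), 0 of 6 dermal fibroblast markers, 1 of 5 immune markers (Csf1r) and 0 of 4 endothelial markers. Against the same 17.7%, these 4 lists are too short to show a difference. Among keratinocyte markers Krt14, Krt1, Krt2 and Lor had 0 sites, and all 4 endothelial markers had 0. Sites do not measure expression: the number of cells that hold an RNA and its amount per cell cannot be told apart here, nor either of them from binding.

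Among 21887 protein-coding genes, 15 (0.0685%) had 8 or more regions in all 3 lists. Marchf3 had 10, a count that 4 genes exceeded, Ube2k had 9, a count that 4 genes shared, and Atp13a3 had 8, a count that 6 genes shared. Just below them, 17 genes had 7 such regions. Since long genes can hold more regions, genes of 50000 to 200000 nt were also counted, and 7 of these 3955 (0.177%) had 8 or more while 29.7% had at least 1. Per 10000 nt of span, Marchf3 had 0.611 regions in all 3 lists, Ube2k 1.46 and Atp13a3 1.05. The median over genes with at least 1 such region was 0.378.

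**Figure D1:**
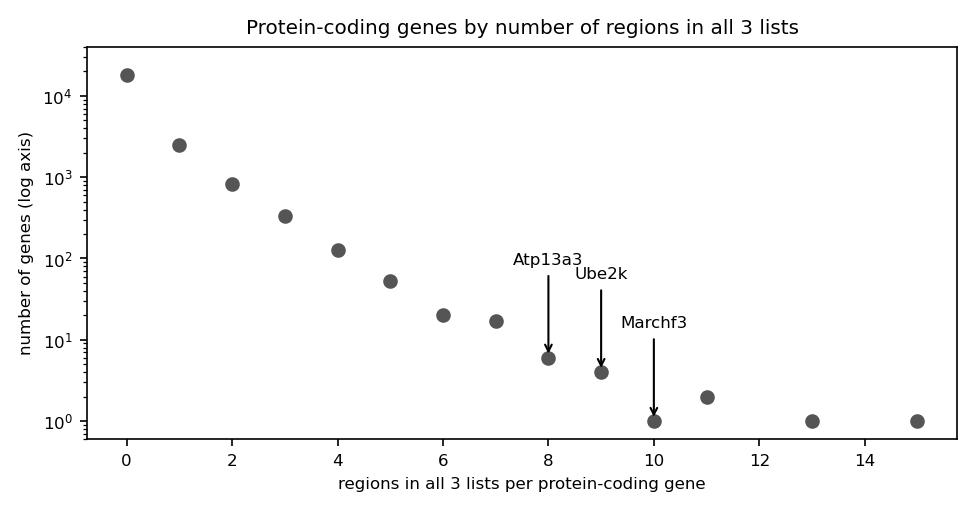
Number of protein-coding genes (y axis, log scale) by the number of regions in all 3 lists per gene (x axis), with the 3 genes pointed out. Each point stands for all genes of that count, and Marchf3 with 10, Ube2k with 9 and Atp13a3 with 8 lie in the sparse right part of the plot.

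All 377 sites of the 3 genes lay on the named strand, and the opposite strand held 0. Marchf3 had 58, 32 and 40 sites in lists 1, 2 and 3. Ube2k had 48, 32 and 47, and Atp13a3 had 53, 27 and 40. List 2 was the lowest for each gene, and it is also the shortest list. Per 10000 sites of the list, Marchf3 had 7.88, 7.997 and 7.43, with a mean of 7.77 ± 0.302 (SD, n = 3 lists). Ube2k had 6.52, 7.997 and 8.73, with a mean of 7.75 ± 1.12 (SD, n = 3 lists), and Atp13a3 had 7.20, 6.75 and 7.43, with a mean of 7.12 ± 0.346 (SD, n = 3 lists). Ube2k, with the widest spread, overlapped both other genes in this share. Marchf3 was above Atp13a3 in lists 1 and 2 and equal to it in list 3, where both had 40 sites.

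Marchf3 covers chromosome 18, 56761716 to 56925515, on the minus strand, a span of 163800 nt. Its sites formed 20 regions in list 1, 19 in list 2 and 18 in list 3. Across lists these became 28 regions, of which 10 were held by all 3 lists, 9 by 2 and 9 by 1. The regions in all 3 lists reached from near the 5′ end to 71.9% of the span. Counted from the 5′ end, those in all 3 lists began at 1120, 7835, 8367, 10343, 34305, 34676, 71342, 86460, 113562 and 117723 nt. Of these, 4 lay in the first 10345 nt, and the last one ended 46060 nt before the 3′ end. None lay in the first 1000 nt. The shortest stretch with 5 of the 10 ran from 7835 to 34677 nt, a length of 26843 nt, and it grew to 53950 nt when list 3 was left out.

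The strongest Marchf3 region by mean percentile of its highest score covered 56915170 to 56915172. Its highest scores were 124, 63.1 and 122 in lists 1, 2 and 3, each above 92.0% to 96.5% of the sites of its list. In all 3 lists the highest score fell on the same nucleotide, 56915172. The region at 56811941 to 56811953 had highest scores of 90.3, 41.8 and 58.7, again on a nucleotide shared by the lists, 56811942. It held 4 nucleotides called in every list, 56811941, 56811942, 56811948 and 56811953, which is the most of any region in the 3 genes. The region at 56854166 to 56854173 had highest scores of 96.01, 49.4 and 41.7.

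Other Marchf3 regions were uneven between lists. At 56917680 a lone nucleotide was called in each list, with scores of 6.07, 61.8 and 160. The score of list 3 stood at percentile 98.1 of its list and that of list 1 at percentile 32.9. At 56839055 the order was the other way, with scores of 17.6, 3.96 and 0.616. The region at 56917145 to 56917148 had highest scores of 15.02, 25.5 and 1.204 and no nucleotide called in all 3 lists. Both of the latter regions thus counted as present in list 3 on weak sites. With the 50% of sites of each list that had the highest scores, 5 of the regions in all 3 lists were left in Marchf3.

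A cluster near the 3′ side of Marchf3 fell short of the rule. Between 56775211 and 56775937, a stretch of 727 nt, there were 7 regions, 6 in 2 lists and 1 in 1 list, made of 7, 4 and 6 sites in lists 1, 2 and 3. Every list had sites there, but no region held all 3, as the gaps between neighbours included 17 and 21 nt. When sites up to 30 nt apart were joined, Marchf3 had 11 regions in all 3 lists. The cluster began 13495 nt from the 3′ end of the span, and no site of any list lay closer to that end. The spans of a long noncoding RNA gene, Gm15345, and of a pseudogene, Gm18087, lie within Marchf3, and both held 0 of its sites.

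**Figure D2:**
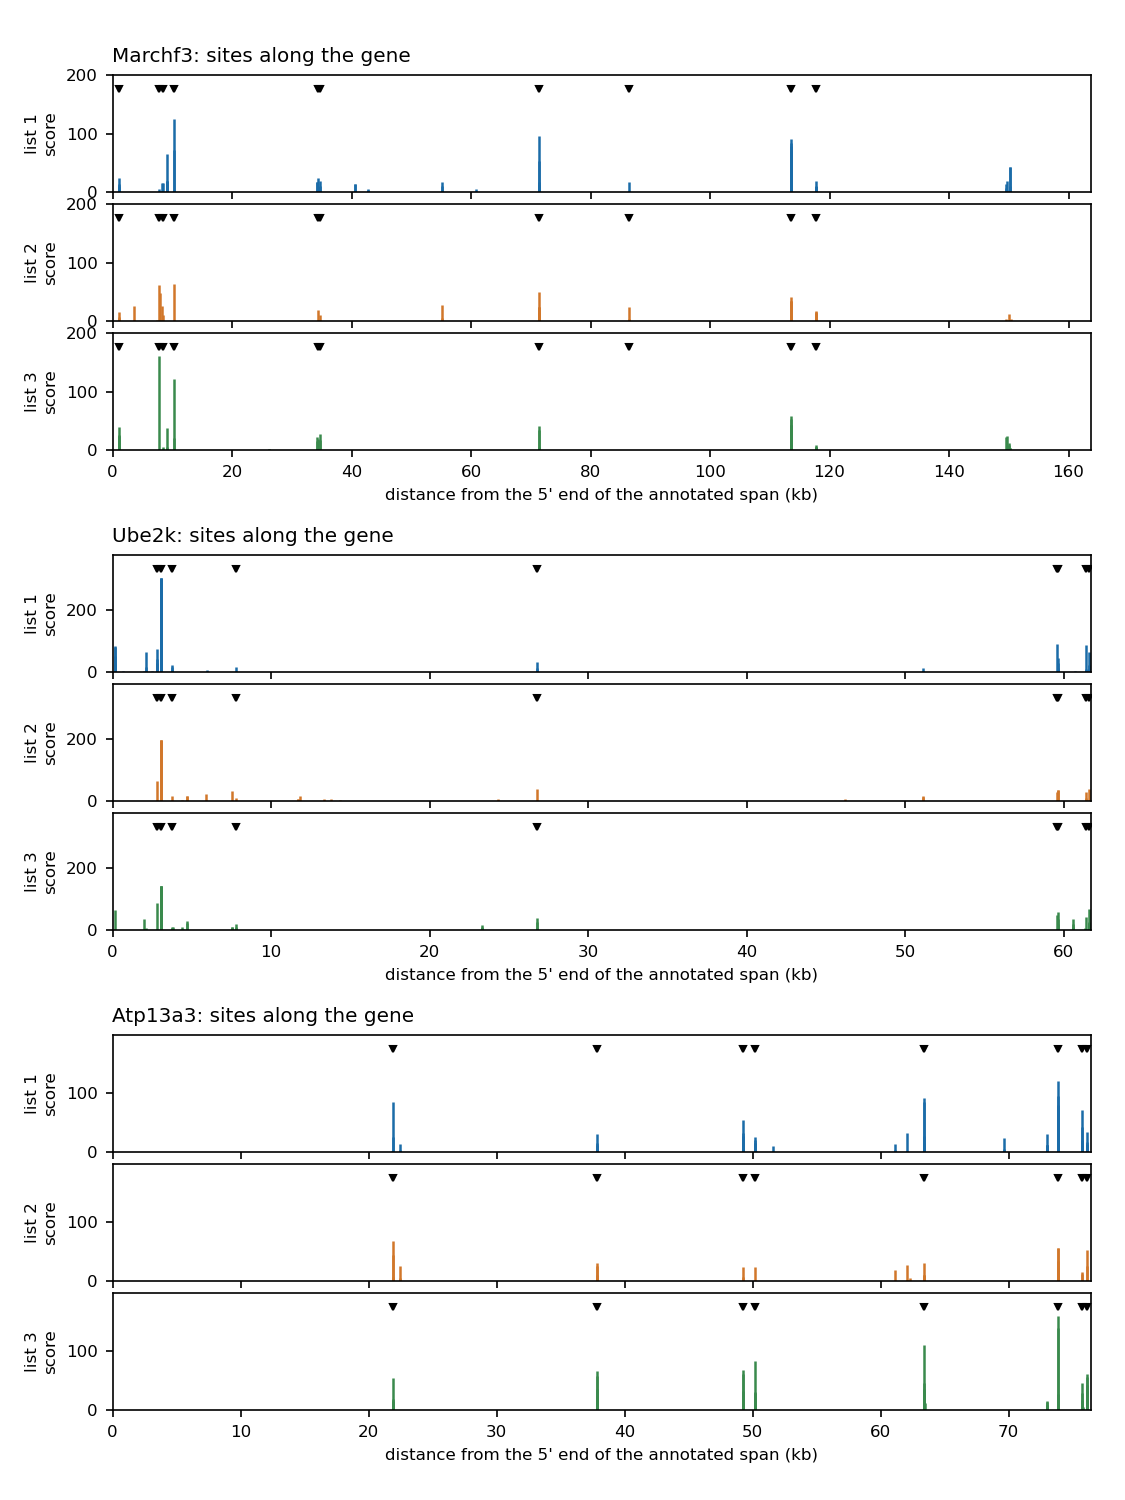
Score of each site (y axis, the authors' score) against its distance in kb from the 5′ end of the annotated span (x axis), by gene and list. Triangles mark regions in all 3 lists. In Marchf3 they run from 1120 to 117739 nt, with 4 of 10 in the first 10345 nt. In Ube2k all but 1 lie toward an end, and in Atp13a3 they begin 21879 nt from the 5′ end.

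Ube2k covers chromosome 5, 65537245 to 65598989, on the plus strand, a span of 61745 nt. Its sites formed 20, 24 and 23 regions in lists 1, 2 and 3. Across lists these became 40 regions, of which 9 were held by all 3 lists, 8 by 2 and 23 by 1. Most of those in all 3 lists lay toward an end of the gene. The first 8000 nt held 4 of the 9 regions in all 3 lists and the last 3000 nt held another 4, with 1 region in the 50745 nt between them. Over protein-coding spans of at least 4000 nt whose strand the promoter table gives, 37% of such regions lay in the last 3000 nt. No such share was computed for the first 8000 nt, so the grouping is a description of this gene only.

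The highest scores of the 3 genes came from the Ube2k region at 65540323 to 65540335, which begins 3078 nt from the 5′ end. In list 1 the nucleotides 65540326, 65540329, 65540332 and 65540335, each 3 nt from the next, scored 304, 304, 304 and 303. In list 2 the last 3 of them scored 197, 197 and 198, and in list 3 all 4 scored 144. These sites thus repeated at a step of 3 nt with nearly equal scores within a list. Those scores were above 97.6% to 99.5% of the sites of the list. List 1 also had a site 3 nt before them, at 65540323, with a lower score of 12.2 (percentile 51.3). Runs of at least 3 sites at this step, with neighbouring scores within 1% of each other, numbered 14, 5 and 16 in the whole of lists 1, 2 and 3. The run in Ube2k was the only 1 on the same nucleotides in all 3 lists. Other steps were not counted over the series. Equal scores were also seen on adjacent nucleotides, counted as pairs within 0.1% of each other in lists 1, 2 and 3. Ube2k had 0 of 16, 3 of 5 and 1 of 13 such pairs, and Marchf3 4 of 30, 0 of 8 and 3 of 11. Atp13a3 had 0 of 27, 0 of 11 and 0 of 22. The step of 3 nt was looked for after the values were seen, and the underlying sequence was not analysed here.

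Near that run, the Ube2k region at 65540064 to 65540066 was high in every list, with highest scores of 74.7, 64.8 and 87.4. Each list put its highest score on another nucleotide of these 3. Both following regions were lower: the highest scores were 24.9, 16.3 and 8.30 at 65541012 to 65541022, and 16.9, 10.6 and 20.7 at 65545024 to 65545027. A region just after the start of the gene, 65537413 to 65537424, lay 168 nt from the 5′ end and scored 84.6 in list 1 and 65.6 in list 3. List 2 had no site in it, so it is not among the 9.

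The middle of Ube2k had a lone region in all 3 lists, at 65564008 to 65564010. Its highest scores were 32.8, 37.9 and 40.1, all on nucleotide 65564008. The span of a long noncoding RNA gene, Gm40309, covers 65541661 to 65563976 within Ube2k, and its strand was not given in the annotation used. It held 31 sites in 15 regions of Ube2k, of which 1 was in all 3 lists, the region at 65545024. List 2 alone supplied 7 of these 15 regions, with highest scores between 1.73 and 15.9. Sites there could come from either RNA.

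At the 3′ end of Ube2k, 4 regions in all 3 lists ended within 2129 nt of the end of the span. The region at 65596858 to 65596860 scored up to 89.8, 29.1 and 47.2 in lists 1, 2 and 3. That at 65596909 to 65596912, 51 nt from it by their middles, scored up to 45.1, 36.4 and 58.6. The last ones, at 65598626 to 65598638 and 65598836 to 65598847, had highest scores of 89.1, 28.9 and 43.6 and of 66.2, 39.7 and 69.3. In 3 of these 4 regions the highest score fell on the same nucleotide in every list (65596858, 65598637 and 65598842). The shortest stretch with 5 of the 9 Ube2k regions was 23945 nt, because it had to reach past a group of 4. Under other settings the number of regions changed, and the stretch was taken with at least 50% of those found. It was 4696, 3600 and 10456 nt when lists 1, 2 and 3 were left out in turn, with 13, 12 and 10 regions. It was 4961 nt with joining at 1 nt (11 regions), and 1982 nt with the 50% of sites that scored highest (7 regions).

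Atp13a3 covers chromosome 16, 30312423 to 30388871, on the minus strand, a span of 76449 nt. Its sites formed 17, 12 and 14 regions in lists 1, 2 and 3. Across lists these became 20 regions, of which 8 were held by all 3 lists, 5 by 2 and 7 by 1. The first site of any list lay 21864 nt from the 5′ end, so the 5′ part of the gene was without sites. The regions in all 3 lists began at 21879, 37851, 49233, 50207, 63380, 73846, 75696 and 76090 nt. The shortest stretch with 4 of the 8 ran from 63385 to 76095 nt, a length of 12711 nt.

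Of the 8 Atp13a3 regions in all 3 lists, the highest score passed percentile 75 of its list in 7, 5 and 8 for lists 1, 2 and 3. The region at 30315014 to 30315025 had the highest mean percentile, with highest scores of 120, 55.8 and 159. The scores peaked on nucleotide 30315019 in lists 1 and 3, and on its neighbour 30315020 in list 2. The region at 30366990 to 30366992 scored up to 85.3, 67.7 and 54.8, each time on 30366992. The region at 30325482 to 30325491 scored up to 91.7, 30.8 and 110, each time on 30325490. List 2 gave the lowest of the 3 scores in the regions at 30315014 and 30325482, and list 3 gave it at 30366990. The percentiles within the lists had the same lowest list in each of these regions.

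Regions in the interior of Atp13a3 were also held by every list. At 30351015 to 30351020 the highest scores were 31.6, 31.0 and 66.7. At 30339635 to 30339638 they were 55.1, 23.2 and 68.2, and at 30338642 to 30338664, the longest region of the 3 genes with 23 nt, they were 25.6, 24.7 and 83.0. List 3 was the highest at each of these 3 regions, both by score and by percentile within the list. At the 3′ end, the region at 30313162 to 30313175 scored up to 72.5, 15.2 and 45.3, and that at 30312771 to 30312781, which lay 348 nt from the end, scored up to 34.4, 53.0 and 61.5. With the 50% of sites that scored highest, and with joining at 1 nt or 30 nt, Atp13a3 had 8 regions in all 3 lists each time.

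**Figure D3:**
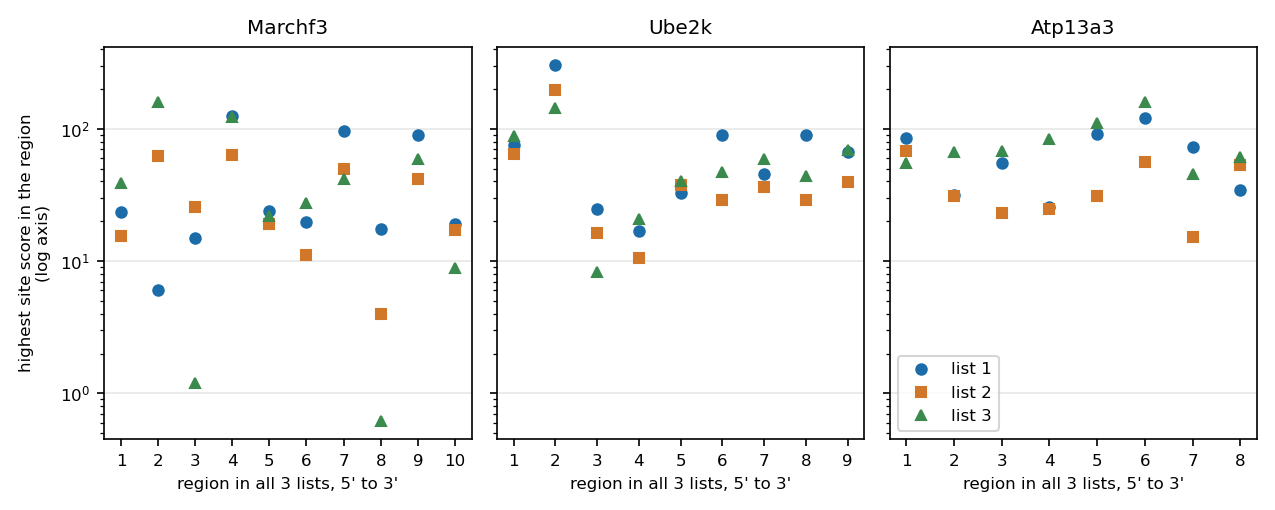
Highest site score in each region held by all 3 lists (y axis, the authors' score on a log axis) against the order of the regions from 5′ to 3′ (x axis), with 1 symbol per list. The second Ube2k region stands highest at 304, 198 and 144, and the second Marchf3 region has unequal scores of 6.07, 61.8 and 160 in the lists.

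The place of regions relative to the ends of the span, which the choice of the genes did not use, was counted by gene. In the last 1000 nt lay 0 of 10 regions of Marchf3, 2 of 9 of Ube2k and 2 of 8 of Atp13a3. Over protein-coding spans of at least 4000 nt whose strand the promoter table gives, 19.7% of regions in all 3 lists lay there. In the last 3000 nt lay 0, 4 and 3 regions of the genes, against 37% over those spans. None of the 27 regions lay in the first 1000 nt, against 9.41%. Those spans begin at 4000 nt, where the last 3000 nt is most of the gene, while the members span 61745 to 163800 nt. No share was computed over spans of like length. With 8 to 10 regions a gene, these counts describe the genes and do not show that they differ from others or from each other. Exons and untranslated regions were not annotated here, so that a region can be placed in the span but not in an exon or intron.

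Most regions of the 3 genes were not held by all lists, with 39 in 1 list and 22 in 2. The share of regions held by all 3 lists was 30.7% of the 88 regions, against 21.1% in the whole series, but the choice of genes rich in such regions bears on this share. In Marchf3, regions that were part of them made up 50%, 52.6% and 55.6% of the regions of lists 1, 2 and 3. In Ube2k they made up 45%, 37.5% and 43.5%, and in Atp13a3 47.1%, 66.7% and 57.1%. Over the series 34.1%, 41.2% and 44.1% of the regions of the lists belonged to a region in all 3. The share in Ube2k list 2 was thus below that of the series, and in Ube2k list 3 it was close to it.

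The 27 regions in all 3 lists are close between lists by the joining rule, and were also compared by nucleotide. A nucleotide called in all 3 lists was present in 22 of the 27 regions, or 81.5%, against 82.3% of such regions in the series. The highest score fell on the same nucleotide in every list in 12 of 27 (44.4%, against 35.1%), and on nucleotides at most 1 nt apart in 19 of 27 (70.4%, against 56.3%). With 27 regions, in genes chosen for regions in all 3 lists, nothing is read from these differences. By gene, nucleotides at most 1 nt apart were found in 5 of 10 regions of Marchf3, 6 of 9 of Ube2k and 8 of 8 of Atp13a3. The largest distance was 6 nt in Marchf3 and in Ube2k, and 1 nt in Atp13a3. In Ube2k the distance of 6 nt belonged to the run at a step of 3 nt.

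Counted by nucleotides, Marchf3 had 14 that were called in all 3 lists, Ube2k 10 and Atp13a3 16. For Marchf3 the shares of sites in lists 1, 2 and 3, with 95% exact binomial intervals, were 24.1% (13.9 to 37.2), 43.8% (26.4 to 62.3) and 35% (20.6 to 51.7). For Ube2k they were 20.8% (10.5 to 35.0), 31.3% (16.1 to 50.01) and 21.3% (10.7 to 35.7). For Atp13a3 they were 30.2% (18.3 to 44.3), 59.3% (38.8 to 77.6) and 40% (24.9 to 56.7). The series had 19.8%, 36.4% and 27.1%, but choosing genes rich in regions held by all 3 lists bears on these shares, and nothing is read from the difference. The intervals cover counting error only, for sites that are not independent of their neighbours. Without list 2, the nucleotides held by both other lists numbered 30 in Marchf3, 20 in Ube2k and 26 in Atp13a3.

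**Figure D4:**
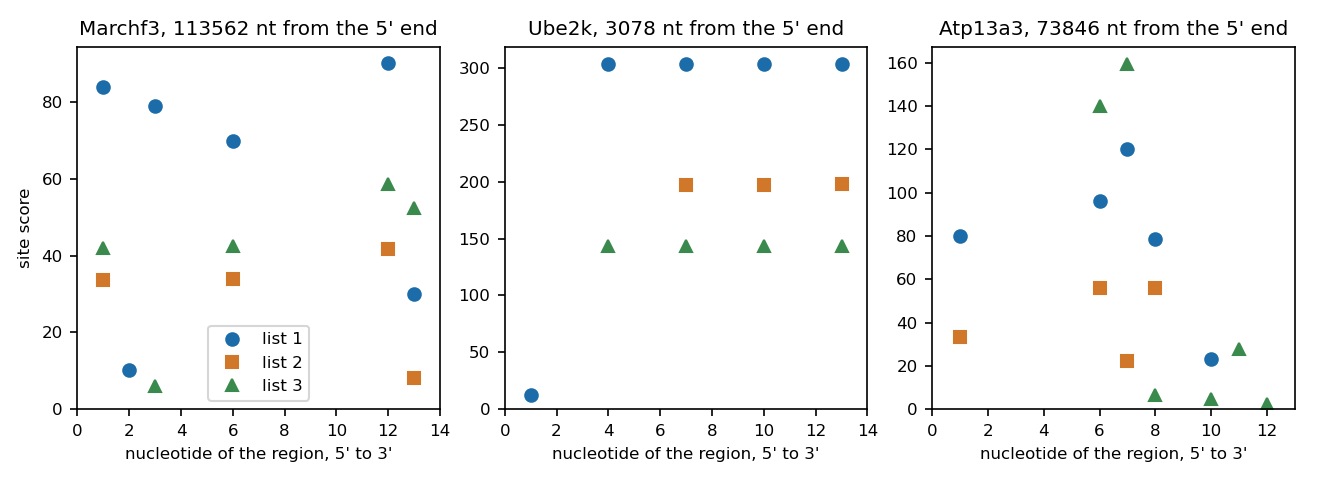
Site scores (y axis) by nucleotide within 1 region of each gene (x axis, counted from the 5′ side), with 1 symbol per list. In Marchf3 the lists share the first, the sixth and the last 2 positions, and in Atp13a3 the scores peak on neighbouring nucleotides. In Ube2k the sites repeat every 3 nt at 303 to 304, 197 to 198 and 144, after a first site at 12.2 in list 1.

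Regions held by more lists had higher highest scores in these genes, and the same was not computed over the series. The mean percentile of the highest score had a median of 25.2 over the 39 regions in 1 list, 56.6 over the 22 in 2 lists and 82.1 over the 27 in all 3. Their median lengths were 1, 3 and 8 nt in the same order, and the part of length in these scores was not tested. By gene, the median over regions in all 3 lists was 64.2 in Marchf3, 83.9 in Ube2k and 83.6 in Atp13a3. Highest scores above percentile 75 in every list were found in 3 of 10 regions of Marchf3, 7 of 9 of Ube2k and 5 of 8 of Atp13a3, against 35.9% of the regions in all 3 lists of the series. Of the regions in 1 list, 30 of 39 were a lone site, 18 of them in Ube2k. An exception was 56917635 in Marchf3, called only in list 2 with a score of 48.2.

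The joining distance moved the counts of regions in all 3 lists little, but these counts are net of regions gained and lost. The widest gap inside a region was 8 nt in Marchf3, 8 nt in Ube2k and 10 nt in Atp13a3. The closest separate neighbours were 17 nt apart in Marchf3, 11 nt in Ube2k (65598825 and the region from 65598836) and 15 nt in Atp13a3. With joining at 1 nt the counts of regions in all 3 lists were 12, 11 and 8, and with joining at 30 nt they were 11, 9 and 8. At 1 nt the Marchf3 regions that begin at 56811941 and 56807776 came apart, and so did the Ube2k run at a step of 3 nt. The Marchf3 region at 56917145 to 56917148 was then no longer held by all 3 lists.

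The genes whose sites in the 3 lists were most like those of the members were sought by the distance between log2(sites + 1) over the lists. For Marchf3 these were Atp13a3 (distance 0.27) and Skint6 (0.29), for Ube2k Skint6 (0.25) and Adgrl2 (0.33), and for Atp13a3 Skint6 (0.12) and Marchf3 (0.27). Skint6 had 50, 28 and 42 sites and 9 regions in all 3 lists, and Adgrl2 had 40, 29 and 42 sites and 7 regions. The likeness rests on 3 values per gene and covers numbers of sites only. Skint6 spans 482358 nt, against 163800 nt or fewer in the members.

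Relatives of Marchf3 carried few regions except Marchf6. Of 10 other genes of the MARCH family of membrane ubiquitin ligases, 2 had a region in all 3 lists, which is 20% against 17.7% of protein-coding genes, and the median was 0 regions. Marchf6, which encodes a ligase of the endoplasmic reticulum, had 7 such regions with 17, 14 and 18 sites in lists 1, 2 and 3. Marchf1 had 1 region, with 4, 3 and 4 sites, but these lay on the strand opposite to its promoter in the annotation. Marchf8 had 8, 1 and 6 sites and 0 regions in all 3 lists. The other members of the family together held 8 such regions, against 10 in Marchf3. Marchf3 was chosen by this count and they were not, so nothing is read from the difference.

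A larger share of the relatives of Ube2k had a region in all 3 lists. Of 34 other E2 enzymes and related genes, 18 had a region in all 3 lists (52.9%, against 17.7%), with a median of 1 region, where the median over all protein-coding genes was 0. Ube2e2 led with 6 regions and 45, 40 and 31 sites. Ube2v2, which encodes an E2 variant without the catalytic cysteine, had 4 regions and 14, 8 and 13 sites, and Ube2d3 had 2 regions and 28, 9 and 24 sites. The other 15 bound genes had 1 or 2 regions, and 9 genes of the list had 0 sites, among them Ube2a and Ube2c. RNA levels were not measured, so their part in this share was not tested.

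Relatives of Atp13a3 and genes of polyamine metabolism had fewer regions per gene than Atp13a3, which was chosen by this count. Of 16 such genes, 5 had a region in all 3 lists (31.3%, against 17.7%), with a median of 0 regions and at most 2 in a gene. Atp13a4, a neighbouring P5-type ATPase gene, had 2 regions and 16, 20 and 12 sites. Azin1, which encodes an inhibitor of ornithine decarboxylase antizyme, had 2 regions and 12, 4 and 8 sites. Smox, which encodes spermine oxidase, had 2 regions and 12, 4 and 6 sites. Atp13a2, a lysosomal polyamine exporter, had 0 sites, and Atp13a1 had 0, 2 and 0.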

How the data were processed

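The authors deposited 3 lists of single-nucleotide sites with a strand and a score per site, which is their own value with no stated scale. Per the file headers, each list was called with input, on 2 replicates as named in its title. GRCm38 and mm10 are the builds, and HISAT2 2.1.0, HOMER and cutadapt 1.16 the tools, per the submitters' processing notes. For the caller's settings, duplicate removal and multiply aligned reads, the sources used here give nothing, and calling on joined replicates hides the spread within a list. Weighting by input can remove or add sites in abundant RNA.

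Positions are 1-based on GRCm38. Joining took sites of a strand with gaps up to 10 nt, within a list and over all lists, into regions held by 1, 2 or 3 of them. Gene spans came from RefSeq on GRCm38.p6, without exons. Ube2k has a strand in the promoter table, and the strands of Marchf3 and Atp13a3 were those stated with the choice of genes. For other genes the strand with most sites was used, which equalled that of the promoter table in 90.1% of 3091 bound genes. A region counted for a gene when its middle lay in that protein-coding span alone. A percentile is the rank of a score among the sites of its list. Intervals are exact binomial (Clopper-Pearson, 95%; scipy 1.17.1, Python 3.11.15). Counting was tested on simulated data, where all 200 of 200 genes were recovered. The simulated regions lay far apart, in genes that did not overlap, with the sites of a gene on a single strand. The test therefore does not bear on close regions, overlapping spans or the choice of strand.

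The 3 genes, the lists of related genes and the markers were chosen with earlier results of these data known. Named genes were the members, for each the 2 genes nearest in sites, and the 3 genes with most regions of each related list; others were named after their values were seen. Alternatives were joining at 1 or 30 nt, the 50% of sites with the highest scores, and each list left out. Sequence motifs were not analysed here because no genome sequence was used.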

Additional observations from a re-analysis of the deposited data

How the results depend on the processing

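Of 48 values recomputed under the alternatives, 36 stayed within 1.5 times the reported value. This tally mixes unlike values and does not measure stability. With a list left out, only the remaining lists had to hold a region or nucleotide, while the reported values needed all 3. Shared nucleotides could then only stay or rise. With each list left out in turn, regions held by both others numbered 12 to 14 in Marchf3, 10 to 13 in Ube2k and 8 to 11 in Atp13a3. Shared nucleotides then numbered 15 to 30 in Marchf3, 12 to 20 in Ube2k and 17 to 26 in Atp13a3. The shortest stretch with at least 50% of the regions was 33549 to 53950 nt in Marchf3, 3600 to 10456 nt in Ube2k and 12711 to 14966 nt in Atp13a3. With the 50% of sites that scored highest, Marchf3 had 5 regions in all 3 lists and 6 shared nucleotides, Atp13a3 had 10 shared nucleotides, and the stretch in Ube2k was 1982 nt. With joining at 1 nt that stretch was 4961 nt. As first reported, the Ube2k stretch joins a group of 4 regions to a distant one. The number of regions that a stretch must hold also changes with the setting. The planned search for GGT-rich sequence was not run. No paired analysis was possible because the lists hold sites of 2 replicates together and no input values. Depth is unknown, so that a missing site may be a lack of reads.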
